A study of Mus musculus with 23 samples.

Results

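The 9 genes described here are Psca, Ly6a, Ly6d, Krt4, Krt7, Wfdc2, Clu, Ppp1r1b and Nupr1, of 20308 gene symbols in the deposited table. Most are used in the mouse prostate as markers of the proximal luminal, castration-tolerant epithelium, and Clu is a gene long known to rise when androgen is withdrawn from the rat ventral prostate. They are the rows with these symbols, and each symbol matched 1 row. Of the 9, 8 passed the filter on low counts and were tested among 13412 genes. Psca did not pass and is given by its counts.

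The data are poly-A RNA sequencing of the ventral prostate of C57BL/6J mice, 23 libraries in 6 groups. The mice were kept from in utero on either a control diet with 4 mg/kg folic acid or a diet enriched to 24 mg/kg. On each diet the lobe was taken at 7 weeks from intact mice, or 3 or 10 days after castration done at that age. Each group had 4 libraries, except the control diet at 3 days with 3, replicates 1, 3 and 4, so every comparison with that group rests on 3 libraries. RNA came from 4 mice per group, and each library is taken here as 1 mouse; the labels name no litters. All mice shared 1 strain and no transgene is named. The castrated mice were 3 or 10 days older than the intact ones and no sham surgery is labelled, so loss of testicular hormone, surgery and age cannot be told apart. The whole ventral lobe was used, and in such bulk tissue fewer cells of a type and less RNA per cell cannot be told apart.

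The prostate epithelium is a branching set of ducts that open into the urethra. Luminal cells in the distal ducts make the secretion and depend on androgen from the testis for it and for their survival. Luminal cells near the urethra secrete little, carry markers such as Psca, Ly6a and Krt4, and are known in mice to persist through castration. Clu encodes clusterin, a secreted chaperone of damaged tissue.

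Levels are given as CPM, the estimated counts per 1 M counts of a library's total after that total is scaled by the trimmed mean of M values (TMM). TMM makes the bulk of genes alike between libraries, so a change is relative to that bulk. "Rose" and "fell" are used for an adjusted p under 0.05 in edgeR's quasi-likelihood test, Benjamini-Hochberg adjusted over all 13412 genes, and log2 fold changes are given ± the standard error (SE). The scaling matters here: if counts are divided by library totals alone, the median gene shifts upward by 0.74 to 1.24 on the log2 scale in the 4 comparisons of castrated with intact mice.

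Library totals ran from 6.38 to 15.6 M counts. Marker lists were set beside the tissue label, but a fall of secretory genes after castration cannot tell the ventral lobe from other lobes. The summed list of 8 genes of other prostate lobes stood at 6753 to 7904 CPM in control intact and 6240 to 12526 CPM in folic intact libraries. The distal luminal and ventral lobe list stood at 731203 to 823311 and 680491 to 1106780 CPM there. These sums are not shares of a library: CPM divides by the total times its TMM factor, which was 0.553 to 0.749 in intact libraries. Whether tissue of other lobes was included was not tested. Of 16 genes of the distal luminal and ventral lobe secretory list, 10 to 12 fell and 1 rose in each of the 4 castration comparisons. Over all genes tested, 6.15% to 11.7% fell and 3.83% to 10.2% rose in those comparisons. The summed level of the 11 seminal vesicle genes in the table was at most 2.83 CPM in any library. Some libraries stood apart. Control intact replicate 2 had 4368 CPM summed over 8 skeletal muscle genes, against at most 158 CPM in any other library. Folic 10 d replicate 2 had the highest sums of the endothelial (104 CPM), macrophage (347 CPM), nerve (41.5 CPM), smooth muscle (2849 CPM) and basal epithelial (623 CPM) lists. Folic intact replicate 3 had the lowest sums of the fibroblast (169 CPM), smooth muscle (361 CPM) and endothelial (7.81 CPM) lists.

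The 9 genes did not move as a group. On the control diet Ppp1r1b rose at 3 and 10 days, and on the diet rich in folic acid no gene rose while Krt7 and Wfdc2 fell at both times. Nupr1 fell at 10 days on both diets. In counts, 1 of 8 tested genes rose and none fell in control mice at 3 days, where 3.83% of all genes rose and 6.15% fell. In control mice at 10 days 1 rose and 1 fell, beside 7.15% and 9.45% of all genes. In folic acid mice at 3 days none rose and 2 fell, beside 6.07% and 8.27%, and at 10 days none rose and 3 fell, beside 10.2% and 11.7%. The numbers with an unadjusted p under 0.05 in those comparisons were 2, 4, 2 and 4 of 8. Divided by library totals alone, the same comparisons gave 3, 4, 2 and 5 genes higher and none lower, while 95.9% to 98.1% of all called genes were then higher, against 38.4% to 46.4% with TMM. Between 3 and 10 days none rose and 1 fell on each diet, where 0.0895% of all genes rose and 0.261% fell in control mice, and 0.164% rose and 0.47% fell in folic acid mice. None of the 8 passed in any comparison of the diets: 0.0522% of all genes did in intact mice, 0.0671% at 3 days, 0.119% at 10 days and 0.35% over the mean of the 3 states. None passed in the tests of whether castration acted differently on the diets, where 0% of all genes passed at 3 days and 0.0149% at 10 days. The plot of castration contrasts shows these fold changes side by side.

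**Figure D1:**
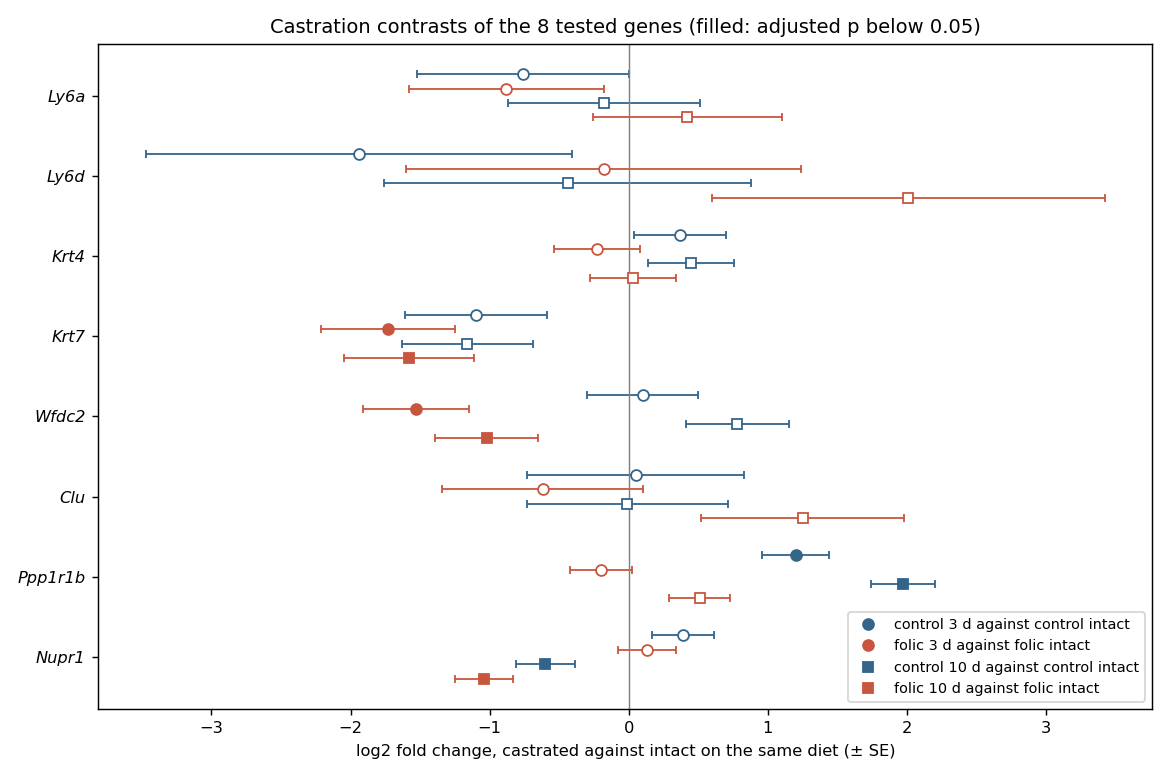
Log2 fold change of the 8 tested genes, castrated against intact mice of the same diet, with bars of ± 1 SE (blue: control diet; red: folic acid diet; circles: 3 days; squares: 10 days; filled: adjusted p below 0.05). Ppp1r1b is the gene filled to the right, on the control diet, and Krt7, Wfdc2 and Nupr1 are filled to the left.

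Psca, Ly6a and Ly6d encode small surface proteins of the Ly6/uPAR family held to the membrane by a glycosylphosphatidylinositol anchor. Psca is prostate stem cell antigen, Ly6a is Sca-1, used to sort murine progenitor cells, and Ly6d marks a castration-resistant subset of luminal cells in mice. In the GENCODE annotation of GRCm38 they lie on chromosome 15, Psca at 74714839 to 74717069, Ly6d at 74762056 to 74763620 and Ly6a at 74994877 to 74998031. Psca and Ly6d are 45.0 kb apart. Strand-specific counting is not stated in the sources used here, and reads shared by near-identical Ly6 genes could be split between them.

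Psca was counted mainly in intact mice. The 4 control intact libraries had 1, 61, 12 and 9 counts and the 4 folic intact libraries 0, 9, 2 and 10. After castration the 3 control libraries at 3 days had 0, as did 3 of the 4 at 10 days, and control 10 d replicate 4 had 8. On the folic acid diet they had 2, 0, 0 and 0 at 3 days and 0, 1, 0 and 0 at 10 days. Pooled over the group, control intact stood at 2.3 CPM, and 3 counts over the control 3 d group, the limit that a count of 0 allows, would be 0.0783 CPM. The level was therefore at least 29.4-fold lower at 3 days, or at least 10.1-fold lower with control intact replicate 2 left out (0.793 CPM pooled over the other 3). These limits cover counting error only. When edgeR was run with no filter, Psca passed in that comparison (adjusted p = 0.0368) and in no other.

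Ly6a stood at 2.16 to 10.7 CPM in control intact and 3.56 to 9.42 CPM in folic intact libraries. At 3 days it was 4.06, 4.26 and 1.35 CPM on the control diet and 3.34, 0.964, 4.52 and 4.56 CPM on the folic acid diet. At 10 days it was 5.36, 8.09, 2.46 and 3.34 CPM on the control diet, and 3.54, 21.2, 0.516 and 7.96 CPM on the folic acid diet. All groups overlapped, and folic 10 d replicate 2 was the highest of the 23 libraries. The castration contrasts ran from -0.88 ± 0.70 (folic 3 d) to 0.42 ± 0.68 (folic 10 d), with edgeR adjusted p of 0.465 and 0.709. The folic 10 d value was -0.63 without replicate 2. Scaled by library totals alone, it was 1.79 and passed (edgeR adjusted p = 0.0306).

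Ly6d was close to the limit of detection outside a few libraries. Control intact replicates 1, 3 and 4 had 0.535, 0 and 0.695 CPM and replicate 2 had 10.7 CPM. The folic intact libraries had 0.369, 0.689, 1.36 and 1.05 CPM. In control mice it was 0.644, 0 and 1.68 CPM at 3 days and 2.14, 3.63, 2.21 and 0.786 CPM at 10 days. Each control 10 d library was thus above the 3 lower control intact libraries and below replicate 2. In folic acid mice it was 2.29, 0, 0 and 0.655 CPM at 3 days and 1.49, 8.97, 0 and 3.39 CPM at 10 days. The 95% interval of the log2 change of control mice at 10 days was -3.02 to 2.13. The estimate itself was -0.44 ± 1.32 (edgeR adjusted p = 0.874) with all libraries and 2.40 without control intact replicate 2, which turned its direction but gave no call (adjusted p = 0.321). In folic acid mice at 10 days the change was 2.01 ± 1.41 (edgeR adjusted p = 0.335). Scaled by library totals alone, that change was 3.38 and passed (edgeR adjusted p = 0.0459).

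The other genes of the family in the same cluster were tested where they passed the filter. Of 18 listed, 12 were in the table and 4 were tested, and none rose or fell in any castration comparison. The nearest was Ly6e, which is expressed in many tissues, at 0.53 ± 0.20 in control mice at 3 days (edgeR adjusted p = 0.0896).

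Control intact replicate 2 was the highest of its group for 7 of the 9 genes. It stood furthest above the mean of the other 3 libraries for Ly6d (10.7 CPM, 26.2 times), Psca (7.37 CPM, 10.0 times) and Krt7 (82.1 CPM, 3.85 times), then for Ly6a (10.7 CPM, 2.88 times), Wfdc2 (29.0 CPM, 2.25 times), Krt4 (96.8 CPM, 1.9 times) and Clu (307 CPM, 1.32 times). The same library held Aqp3, a water channel of the urothelium and of proximal luminal cells, at 6.52 CPM against at most 0.644 CPM elsewhere. It also held the uroplakin genes Upk2 at 3.5 CPM, Upk3a at 1.93 CPM and Upk3b at 1.45 CPM, against at most 0.589, 0.393 and 0.332 CPM in any other library. Of the 13 genes of the urothelial list all are in the table and 6 passed the filter. Of the 8 intact libraries this one had the highest summed list, at 273 CPM against 175 to 263 CPM, and 2 of the 13 genes at 0 against 7 or 8. Castrated libraries reached 461 CPM. Whether urethral or muscle tissue in the sample has a part in these values was not tested.

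**Figure D2:**
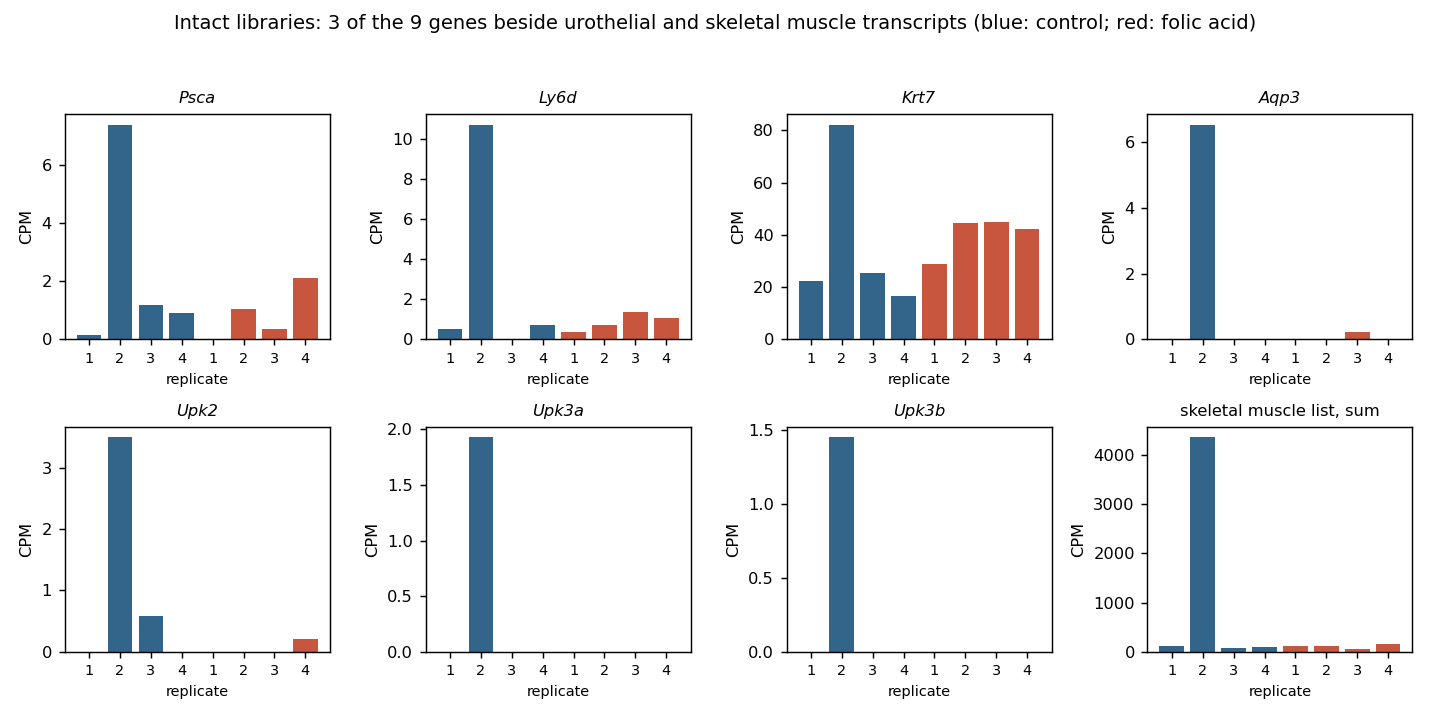
CPM in the 8 intact libraries (blue: control diet, red: folic acid diet, numbered by replicate; bars from 0) of Psca, Ly6d and Krt7, of Aqp3, Upk2, Upk3a and Upk3b, and summed over 8 skeletal muscle genes. Control intact replicate 2 is the tallest bar in each panel, with 82.1 CPM of Krt7 and 4368 CPM of the muscle list.

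Krt4 and Krt7 encode type II keratins, which pair with type I keratins in the intermediate filaments of epithelial cells. In the same annotation they lie 488 kb apart on chromosome 15, Krt7 at 101411043 to 101430313 and Krt4 at 101918535 to 101924735, beyond the Ly6 cluster.

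Krt7 fell after castration on the folic acid diet. It stood at 28.9, 44.6, 45.0 and 42.2 CPM in folic intact libraries, and at 10.6, 9.95, 18.1 and 10.1 CPM at 3 days. At 10 days it was 16.4, 16.8, 5.61 and 14.5 CPM. Neither castrated group overlapped the intact one. The changes were -1.73 ± 0.48 at 3 days (edgeR adjusted p = 0.0191) and -1.58 ± 0.47 at 10 days (adjusted p = 0.0203). The first lost its call without any 1 of folic 3 d replicates 1, 2 and 4 (adjusted p 0.0537 to 0.0575), and the second without folic 10 d replicate 3 (-1.33, adjusted p = 0.0547). Scaled by library totals alone, they were -0.97 and -0.31 and neither passed.

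On the control diet Krt7 was 22.2, 82.1, 25.2 and 16.6 CPM in intact mice, 16.1, 29.0 and 5.9 CPM at 3 days and 19.8, 14.0, 16.4 and 15.2 CPM at 10 days. These groups overlapped, and the changes of -1.10 ± 0.51 and -1.16 ± 0.47 did not pass (edgeR adjusted p = 0.206 and 0.101). The second passed with DESeq2 (-1.16, adjusted p = 0.0296) and without control intact replicate 4 (-1.40, adjusted p = 0.0459). Without control intact replicate 2 they were -0.33 and -0.38 and did not pass. The difference between the diets in the response was -0.63 ± 0.68 at 3 days and -0.42 ± 0.65 at 10 days (edgeR adjusted p = 0.998 and 0.946), so a diet effect on the fall was not shown.

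Krt4 passed in none of the 12 comparisons. Its group means ran from 62.5 ± 24.4 CPM (SD, n = 4) in control intact to 85.1 ± 13.5 CPM (SD, n = 4) in control 10 d libraries. Single libraries ran from 36.7 CPM in folic intact replicate 1 to 127 CPM in control 3 d replicate 3, and all groups overlapped. Against intact mice it stood at 0.37 ± 0.33 at 3 days and 0.45 ± 0.31 at 10 days in control mice, and at -0.23 ± 0.31 and 0.03 ± 0.31 in folic acid mice. The 95% intervals of these 4 values reached from -0.84 to 1.06. Scaled by library totals alone it was higher, with an adjusted p under 0.05, in 3 of the 4. Among the other type II keratins 5 of 17 in the table were tested. Krt80 fell in control mice at 10 days, from 14, 22, 5 and 9 counts in the intact libraries to 0 in all 4 (edgeR adjusted p = 0.0161), and none of the 5 passed in the other 3 castration comparisons. Krt8, the keratin of all luminal cells, was at 0.11 ± 0.18 in control mice at 3 days and -0.32 ± 0.16 in folic acid mice at 10 days.

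**Figure D3:**
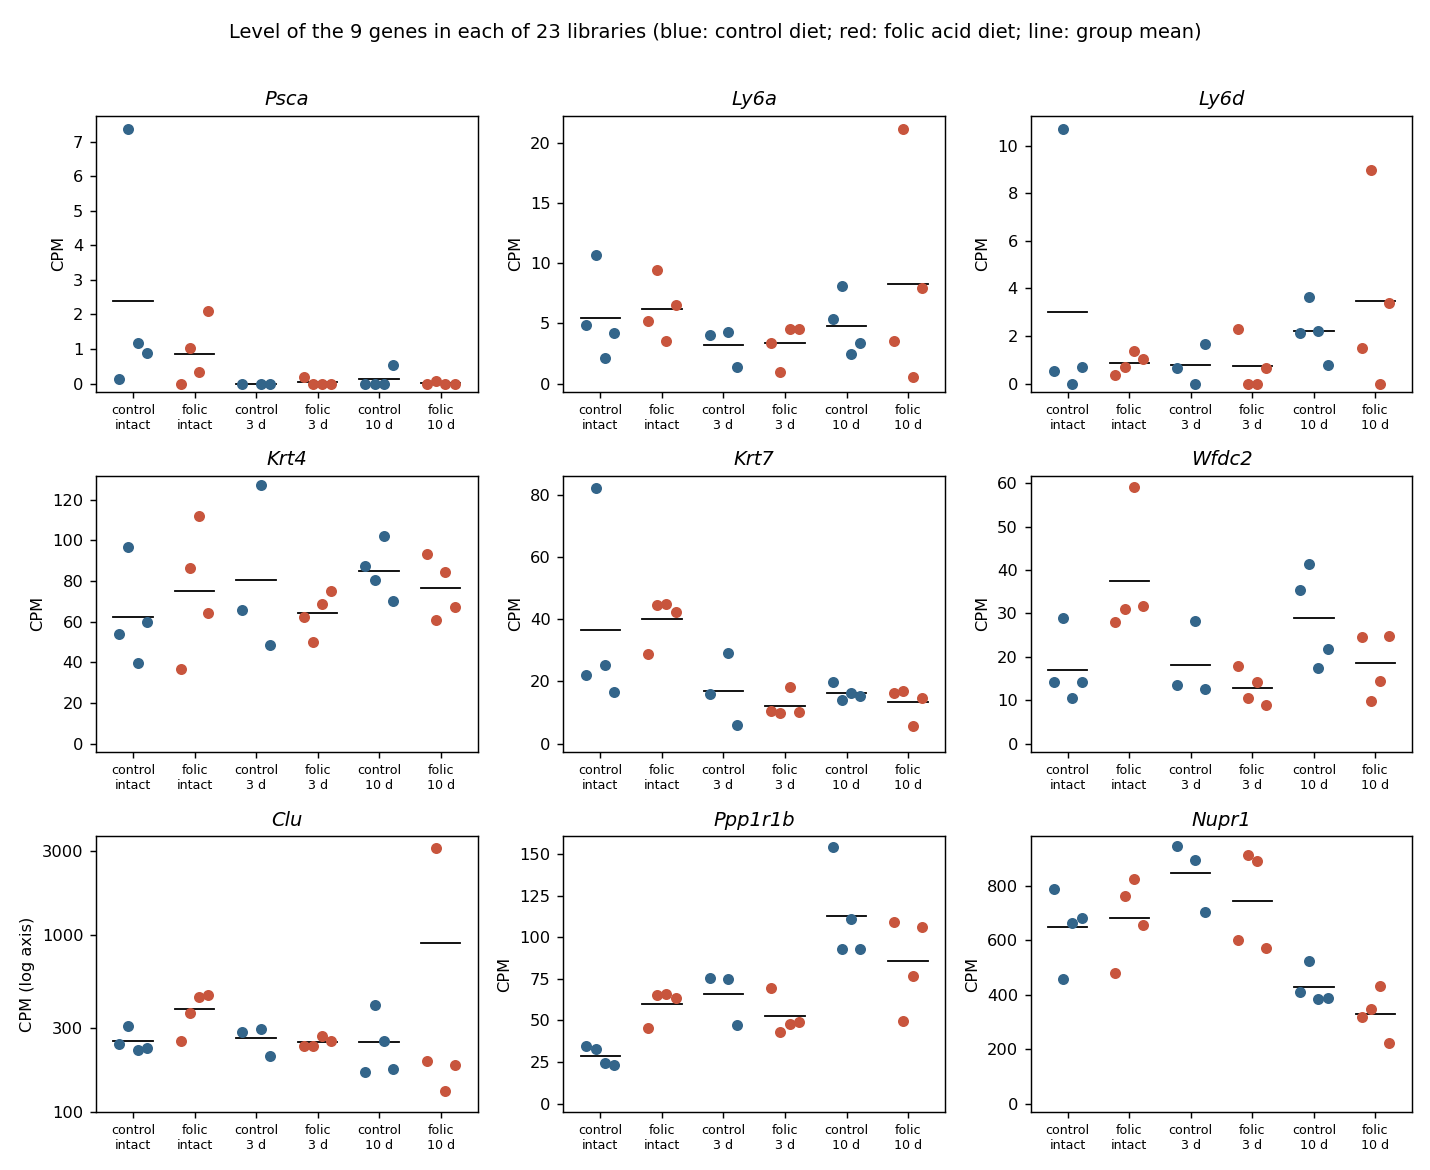
CPM of the 9 genes in each of the 23 libraries (points, ordered by replicate number within a group; black lines: group means; the Clu axis is logarithmic). Ppp1r1b climbs in the control groups, Nupr1 is lowest at 10 days on both diets, and Clu has 1 library at 3101 CPM.

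Clu and Wfdc2 encode secreted proteins. Clu lies on chromosome 14 at 65968483 to 65981547 and Wfdc2, a whey acidic protein domain gene of duct and airway epithelia known in humans as HE4, on chromosome 2 at 164562413 to 164568510.

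Clu passed in none of the 12 comparisons in edgeR over all libraries, and 22 of the 23 libraries lay between 131 and 461 CPM. Control mice had 242, 307, 225 and 230 CPM when intact, 282, 294 and 206 CPM at 3 days and 168, 402, 251 and 175 CPM at 10 days. These groups overlapped, and the changes were 0.05 ± 0.78 and -0.01 ± 0.72 (edgeR adjusted p = 0.982 and 0.995). Each SE here rests on 1 estimate of the spread shared by all 6 groups, folic 10 d replicate 2 included, not on the groups compared alone. The SD was 37.8 CPM in control intact and 48.1 CPM in control 3 d libraries, against 1466 CPM in folic 10 d libraries. Folic acid mice had 252, 362, 449 and 461 CPM when intact, 235, 237, 268 and 252 CPM at 3 days, and 195, 3101, 131 and 185 CPM at 10 days. The change at 3 days was -0.62 ± 0.72 (adjusted p = 0.643), and passed when the folic intact and 3 d libraries were fitted alone (-0.61, adjusted p = 0.0341).

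The value of 3101 CPM in folic 10 d replicate 2 set the estimate for its group. With it, the change at 10 days was 1.25 ± 0.73 and did not pass (edgeR adjusted p = 0.245). Without it, the change was -1.16 and passed (adjusted p = 0.00116): the other 3 libraries, at 131 to 195 CPM, lay below all 4 intact ones. With all libraries and library totals alone, it was 2.66 and passed in the other direction (adjusted p = 0.0074). It was -0.91 (adjusted p = 0.0368) with the 4 libraries that stood apart left out together (control intact 2, folic intact 3, folic 10 d 2 and 3). Clu there was 3.99 log2 units above the next highest library of the same group, the rank 4 gap among the 10519 named genes whose log2 CPM averaged 1 or more. The next highest of all 23 libraries was folic intact replicate 4, at 461 CPM. Of the proximal luminal list, Cd44 (204 CPM, next highest of all libraries 33.9 CPM), Sox4 (83.9 against 28.5 CPM) and Prom1 (73.6 against 37.5 CPM) also peaked in that library, but the summed list did not, at 2413 CPM against 2917, 2661 and 2009 CPM in replicates 1, 3 and 4. Krt4 (61.0 CPM), Ppp1r1b (49.6 CPM) and Wfdc2 (9.91 CPM) were the lowest of their group in it. The library had the lowest summed distal luminal list (29141 CPM). The part of tissue composition in the Clu value was not tested.

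Some other genes known to rise after castration were higher, on a list chosen with earlier results of these data known. Over all genes tested, 3.83% and 7.15% rose in control mice at 3 and 10 days, and 6.07% and 10.2% in folic acid mice. The shares that fell were 6.15%, 9.45%, 8.27% and 11.7% in the same order. Of 19 genes of that list besides Clu, all tested, 8 rose and none fell in control mice at 3 days, 8 rose and 2 fell at 10 days, and on the folic acid diet 5 rose and 1 fell at 3 days and 9 rose and none fell at 10 days. Gas6, a ligand of receptor tyrosine kinases, rose by 1.93 ± 0.16 (edgeR adjusted p = 5.13e-11) in control mice at 10 days. Sat1, which degrades polyamines, rose by 1.83 ± 0.21 (adjusted p = 5.07e-08) in the same comparison, and Igfbp3, which binds insulin-like growth factors, by 3.09 ± 0.49 (adjusted p = 0.000163). The list's median was 0.44 there and -0.01 for Clu. Of 6 tested genes for receptors of clusterin and other extracellular or reticulum chaperones, Hspa5 and Hsp90b1 fell in all 4 castration comparisons, and Hspa5, the main chaperone of the endoplasmic reticulum, was at -2.27 ± 0.22 in control mice at 10 days (adjusted p = 2.53e-09). The receptor gene Vldlr rose in folic acid mice at 10 days (1.93 ± 0.48, adjusted p = 0.00353).

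**Figure D4:**
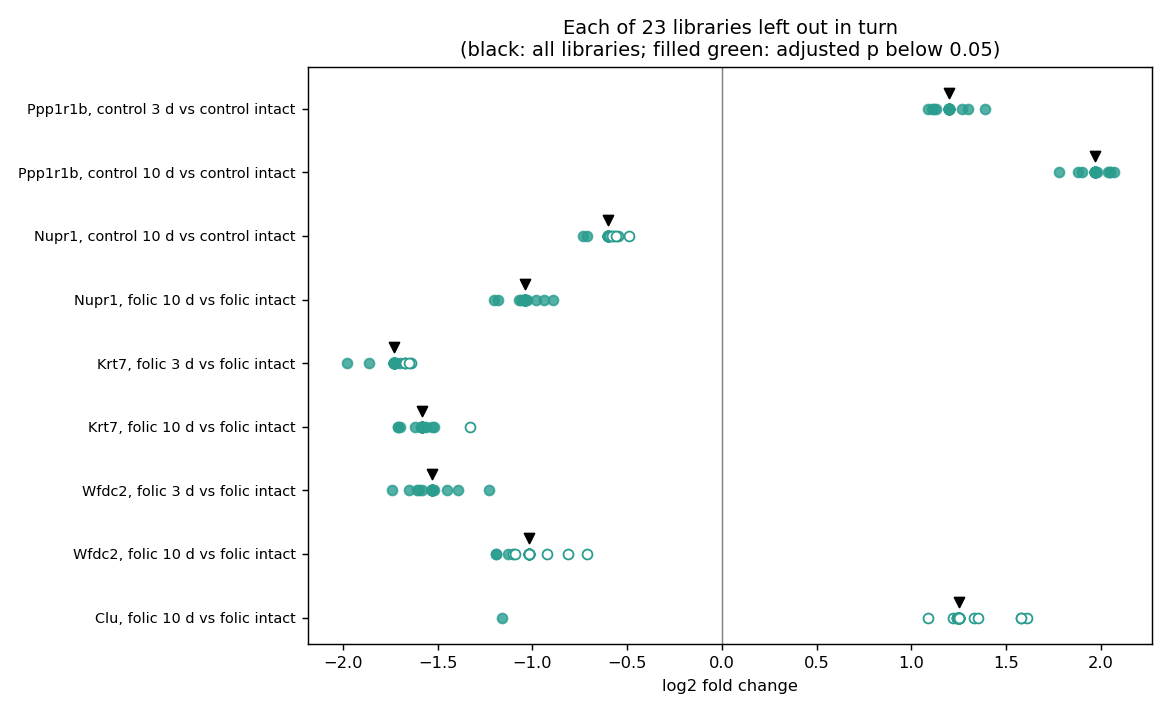
Log2 fold change of 9 castration results after each of the 23 libraries was left out in turn (green; filled: adjusted p below 0.05), with the value from all libraries as a black triangle. Both Ppp1r1b results stay filled, and the Clu result in folic acid mice at 10 days moves from 1.25 to -1.16 when 1 library is left out.

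Wfdc2 fell after castration on the folic acid diet and did not pass on the control diet. It was 28.1, 31.1, 59.1 and 31.6 CPM in folic intact libraries, 17.9, 10.6, 14.2 and 8.98 CPM at 3 days and 24.6, 9.91, 14.5 and 24.8 CPM at 10 days. No library of either castrated group reached the intact ones. The changes were -1.53 ± 0.38 at 3 days (edgeR adjusted p = 0.00659) and -1.02 ± 0.37 at 10 days (adjusted p = 0.0491). Scaled by library totals alone, they were -0.73 (adjusted p = 0.0784) and, with the direction turned, 0.23 (adjusted p = 0.542). The result at 10 days lost its call in 13 of 23 fits that left out 1 library (adjusted p 0.0501 to 0.199), and was -0.71 without folic intact replicate 3 and -0.29 (adjusted p = 0.698) without the 4 libraries together.

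On the control diet Wfdc2 was 14.2, 29.0, 10.4 and 14.1 CPM in intact mice, 13.6, 28.2 and 12.5 CPM at 3 days and 35.3, 41.3, 17.5 and 21.7 CPM at 10 days. The intact and 10 d libraries overlapped through intact replicate 2 alone. The changes were 0.10 ± 0.40 and 0.78 ± 0.37 (edgeR adjusted p = 0.923 and 0.165), and the second was 1.17 and passed without control intact replicate 2 (adjusted p = 0.033). Scaled by library totals alone, the second was 1.86 and passed (edgeR adjusted p = 3.99e-05). The response differed between the diets by -1.63 ± 0.54 at 3 days and -1.79 ± 0.52 at 10 days, with unadjusted p of 0.00591 and 0.00208 and edgeR adjusted p of 0.998 and 0.869, so neither passed. Intact mice on folic acid were at 1.15 ± 0.37 over control, with overlapping groups (adjusted p = 0.633). Of 3 other tested genes of the whey acidic protein family, Wfdc3 fell in control mice at 10 days (-5.58 ± 1.38, adjusted p = 0.00864) and none passed in the other 3 castration comparisons.

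Ppp1r1b and Nupr1 encode proteins that act inside the cell. Ppp1r1b, on chromosome 11 at 98348404 to 98357796, encodes DARPP-32, an inhibitor of protein phosphatase 1 once it is phosphorylated by protein kinase A, best known from dopamine signalling in the striatum. Nupr1, on chromosome 7 at 126623249 to 126630861, encodes a small chromatin-associated protein induced by cell stress.

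Ppp1r1b rose after castration on the control diet at both times. It was 34.6, 33.0, 24.5 and 23.0 CPM in control intact libraries, 75.7, 74.8 and 47.3 CPM at 3 days and 154, 92.7, 111 and 92.6 CPM at 10 days. The 3 states did not overlap, and every library at 10 days was above every library at 3 days. The changes against intact were 1.2 ± 0.24 (edgeR adjusted p = 0.000904) and 1.97 ± 0.23 (adjusted p = 1.76e-07). Both passed in each of the 10 alternatives run and with each of the 23 libraries left out. The step from 3 to 10 days was 0.77 ± 0.24 and did not pass (adjusted p = 0.223).

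On the folic acid diet Ppp1r1b was 45.6, 65.5, 65.8 and 63.6 CPM in intact mice, 69.2, 43.3, 48.1 and 49.0 CPM at 3 days and 109, 49.6, 76.9 and 106 CPM at 10 days. These groups overlapped, and the changes were -0.20 ± 0.22 (edgeR adjusted p = 0.628) and 0.51 ± 0.22 (adjusted p = 0.102). The first turned to 0.60 and passed when counts were scaled by library totals alone. The second passed without folic 10 d replicate 2, the library at 49.6 CPM (0.70, adjusted p = 0.0183), and with the 4 libraries left out (0.89, adjusted p = 0.0189). With all libraries kept, it passed with limma-voom and sample quality weights (0.77, adjusted p = 0.0135) and by library totals alone (1.73, adjusted p = 5.03e-07).

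The intact mice of the diets differed in Ppp1r1b with no overlap, all 4 folic acid libraries lying above all 4 control ones. The difference of 1.06 ± 0.23 missed the threshold in edgeR over all libraries (unadjusted p = 6.28e-05, adjusted p = 0.0871) and passed with DESeq2 (1.07, adjusted p = 0.00455). It also passed with the replicate number as a block (1.09, adjusted p = 0.0264), in a fit of the intact libraries alone (1.07, adjusted p = 0.04) and without folic 10 d replicate 2 (adjusted p = 0.0141). In the other alternatives it did not pass (adjusted p up to 0.329), nor with any other library left out (edgeR adjusted p up to 0.424). The response to castration was lower on folic acid by 1.40 ± 0.33 at 3 days and 1.46 ± 0.32 at 10 days on the log2 scale. Neither passed in edgeR (unadjusted p = 0.000198 and 7.18e-05, adjusted p = 0.531 and 0.193), and the second passed with DESeq2 (adjusted p = 0.022). No other alternative called either, and with 1 library left out the second had an edgeR adjusted p of 0.127 to 0.839. After castration the diets overlapped, at -0.33 ± 0.24 at 3 days and -0.40 ± 0.22 at 10 days. The intact groups enter both the diet comparison and the castration changes, so these values are not independent.

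Of the catalytic subunits of protein phosphatase 1, Ppp1cb rose at 10 days on both diets (0.58 ± 0.17 and 0.59 ± 0.17, edgeR adjusted p = 0.0172 and 0.0129), Ppp1ca fell in folic acid mice at 3 days (-0.49 ± 0.16, adjusted p = 0.0369) and Ppp1cc passed in none of the 4 castration comparisons. The gene whose level followed that of Ppp1r1b most closely over the 23 libraries was Cyp2f2, a cytochrome P450 of the proximal luminal list (Pearson r = 0.82, Spearman rho = 0.88, of 10519 genes). Rnf220 (r = 0.80), Nsmce4a (r = 0.79) and Eif1b (r = 0.77) came next. After the 6 group means were taken out, Fpgs, which adds glutamates to folates and so keeps them in the cell, was the closest (r = 0.85, rho = 0.84). These points share their libraries and scaling and are given as a description.

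Nupr1 fell at 10 days on both diets. It was 788, 456, 662 and 681 CPM in control intact libraries, 945, 894 and 703 CPM at 3 days and 411, 525, 384 and 389 CPM at 10 days. Intact and 10 d control libraries overlapped through intact replicate 2, and the 3 d and 10 d ones did not. The changes were 0.39 ± 0.22 at 3 days (edgeR adjusted p = 0.309) and -0.60 ± 0.21 at 10 days (adjusted p = 0.044), and from 3 to 10 days -0.99 ± 0.22 (adjusted p = 0.0322). The call at 10 days was lost without any 1 of 6 libraries (control intact 1, 3 or 4, control 10 d 1, 3 or 4; adjusted p 0.0887 to 0.16), and scaled by library totals alone the direction turned to 0.50 and passed. The fall from 3 to 10 days lost its call without any 1 of 5 libraries (control 3 d 1 or 3, control 10 d 1, 3 or 4; adjusted p 0.0925 to 0.155).

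On the folic acid diet Nupr1 was 481, 764, 824 and 656 CPM in intact mice, 599, 911, 892 and 572 CPM at 3 days and 320, 348, 433 and 222 CPM at 10 days. All 4 libraries at 10 days were below all of the others on that diet. The change was 0.13 ± 0.21 at 3 days (edgeR adjusted p = 0.75), -1.04 ± 0.21 at 10 days (adjusted p = 0.000413) and -1.17 ± 0.21 from 3 to 10 days (adjusted p = 0.00306). Scaled by library totals alone, the value at 10 days turned to 0.21 and did not pass. In the fit of the folic 3 d and 10 d libraries alone, the fall between them had an adjusted p of 0.0533.

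Nupr1 is a target of Atf4, the transcription factor of the amino acid and reticulum stress response, and 13 other genes of that response were all tested. In control mice 4 fell and none rose at both 3 and 10 days. In folic acid mice 5 fell and none rose at 3 days, and 5 fell and 1 rose at 10 days. In that order, 6.15%, 9.45%, 8.27% and 11.7% of all genes tested fell, and 3.83%, 7.15%, 6.07% and 10.2% rose. The medians of the 13 were -0.24, -0.94, -0.91 and -1.07, beside -0.01, 0.05, 0.01 and 0.07 over all genes tested. At 10 days in control mice Ddit4, an inhibitor of mTORC1, was at -2.78 ± 0.29 (edgeR adjusted p = 1.1e-08), and Asns, asparagine synthetase, at -2.09 ± 0.23 (adjusted p = 3.65e-08). Eif4ebp1, a repressor of translation, was at -1.24 ± 0.19 (adjusted p = 1.09e-05) and Atf4 itself at -0.73 ± 0.21 (adjusted p = 0.0139). Those 4 genes fell in all 4 castration comparisons, at 3 days too, when Nupr1 did not pass. Scaled by library totals alone, 2 of the 13 fell in each comparison and 2, 4, 1 and 5 rose.

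**Figure D5:**
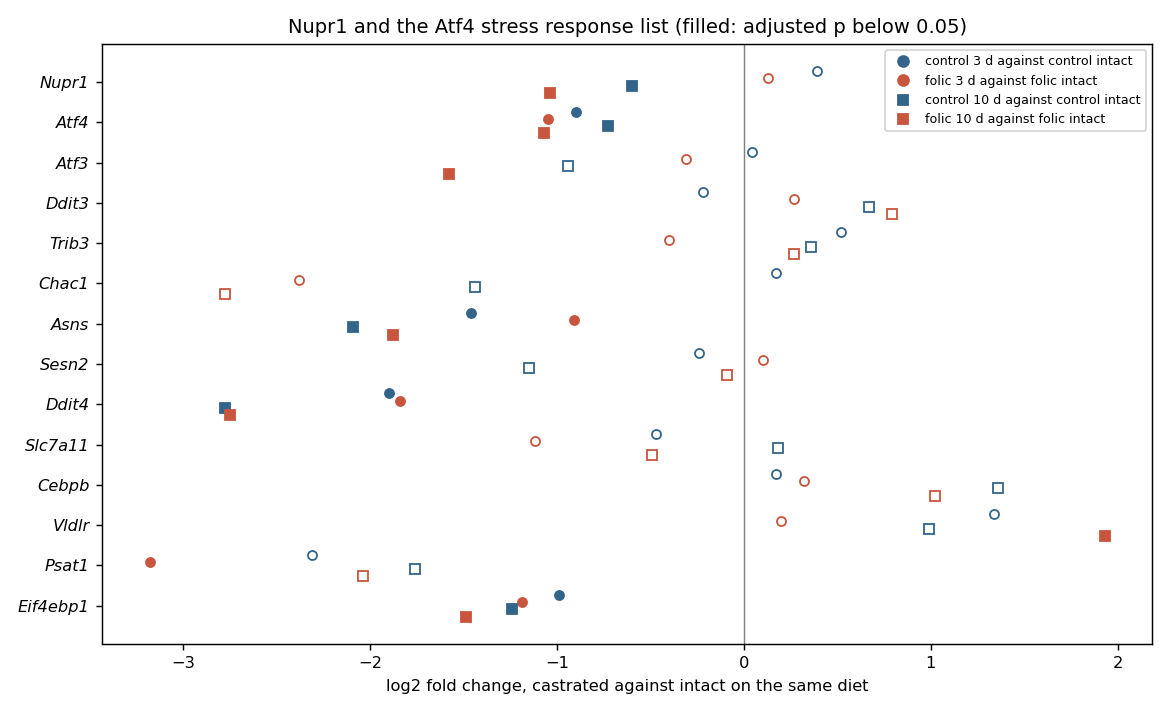
Log2 fold change, castrated against intact on the same diet, of Nupr1 and 13 other genes of the Atf4 stress response (blue: control diet; red: folic acid diet; circles: 3 days; squares: 10 days; filled: adjusted p below 0.05). Nupr1 is to the left at 10 days alone, while Atf4, Asns, Ddit4 and Eif4ebp1 are to the left at both times.

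The promoter of Nupr1 is shown because it carries a composite element of the kind that dimers of C/EBP and ATF proteins, Atf4 among them, are known to bind. In the RefSeq table for GRCm38.p6, which held a promoter for 3 of the 9 genes (Wfdc2, Nupr1 and Krt7), the 250 bases before the start are chr7:126625471-126625720 on the minus strand, printed 5′ to 3′ with the motif in capitals.
Nupr1: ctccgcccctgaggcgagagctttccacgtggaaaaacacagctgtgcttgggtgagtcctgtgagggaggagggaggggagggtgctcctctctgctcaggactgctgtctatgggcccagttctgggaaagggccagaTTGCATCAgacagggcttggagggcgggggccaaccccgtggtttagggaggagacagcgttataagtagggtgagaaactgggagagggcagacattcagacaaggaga
The capitals are the reverse complement of TGATGCAA, the C/EBP and ATF composite element, searched on both strands, and lie 110 to 103 bases before the start. The motif was in 294 of 32851 promoter windows of 300 bases (0.895%), and not in those of Wfdc2 and Krt7. The match is a description of the sequence and no binding was measured. The RefSeq start used here lies inside the gene as GENCODE places it, from 126623249 to 126630861 on the minus strand.

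The other markers of proximal luminal cells also moved in both directions. Of 20 listed, 18 were tested: 3 rose and none fell in control mice at 3 days, 4 rose and 2 fell at 10 days, and on the folic acid diet 1 rose and 2 fell at 3 days and 5 rose and 3 fell at 10 days. Over all genes tested, 3.83%, 7.15%, 6.07% and 10.2% rose in that order, and 6.15%, 9.45%, 8.27% and 11.7% fell. The medians of the 18 were 0.22, 0.18, 0.05 and 0.25, and those of the 8 tested genes 0.08, -0.10, -0.42 and 0.22. Cyp2f2 rose in all 4 comparisons, by 1.5 ± 0.26 and 1.89 ± 0.24 on the control diet and by 1.03 ± 0.24 and 1.39 ± 0.24 on folic acid (edgeR adjusted p = 0.000154, 1.71e-06, 0.00414 and 0.000115). Prom1, which encodes the stem cell antigen CD133, rose in 3 of the 4 (1.37 ± 0.40 and 1.79 ± 0.38 on the control diet, 1.35 ± 0.37 in folic acid mice at 10 days). Pigr, the receptor that carries antibodies across epithelia, fell at 10 days on both diets (-0.88 ± 0.26 and -1.09 ± 0.26). S100a6, a calcium-binding protein, fell in folic acid mice at 3 days (-1.48 ± 0.37, adjusted p = 0.00781). Without the 4 libraries that stood apart, 1 gene rose and 1 fell in folic acid mice at 10 days, and scaled by library totals alone 10, 12, 8 and 15 rose and none fell.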

How the data were processed

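The authors deposited 1 estimated count per gene and library. RSEM 1.2.3, Bowtie 0.12.9, bcl2fastq 2.17.1.14 and mm10 are named in the submitters' processing notes, with no roles; annotation and strand setting: not given in the sources used here. Of the values, 19.5% were not whole, and they were rounded before testing. Of the count columns, 1 with no matching label was not used. Counts were filtered (edgeR's filterByExpr, minimum count 10, minimum total 15), scaled by TMM and fitted with edgeR 4.0.16 in R 4.3.3 (robust quasi-likelihood, 1 mean per group, 23 libraries, 12 comparisons). Alternatives used DESeq2 1.42.0, limma 3.58.1, other scalings and filters, the replicate number as a block, and libraries left out. The pipeline was tested on simulated data. No label says that replicates came from separate litters, so p-values measure the spread between these libraries. Members and gene lists were chosen with earlier results of these data known; from each list, up to 4 genes with the smallest p per comparison could be named, and the genes closest to a member were ranked by Pearson r of log2 CPM (prior count 2). Cd44, Sox4, Aqp3 and the uroplakin genes, and list genes named beside a count over several comparisons, were named after their values were seen. Gene positions are from GENCODE M21 and promoter sequences from RefSeq.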

Additional observations from a re-analysis of the deposited data

Results flagged for a closer look

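In groups of 4 libraries the gap between the highest or lowest library and the nearest other was divided by the group's range, and 10 of 45 groups had a ratio above the 95% critical value of 0.829. Chance gives about 1 such group in 20 where values are normal and groups independent. Here the 9 genes share their libraries and some have few counts, so that rate is a rough guide at most. It does not apply at all to 3 of the 10, where Psca had counts in 1 library alone and the ratio is 1.0 by construction. The ratio was 0.856 for Psca, 0.868 for Krt7 and 0.935 for Ly6d in control intact replicate 2, the library highest in each. It was 0.978 for Clu in folic 10 d replicate 2, at 3101 CPM against 131 to 195 CPM.

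Psca had a ratio of 1.0 in control 10 d replicate 4, folic 3 d replicate 1 and folic 10 d replicate 2, the only libraries of their groups with any count (8, 2 and 1). Krt7 in folic 3 d replicate 3 (18.1 CPM, the other 3 at 9.95 to 10.6) had a ratio of 0.924. Ppp1r1b in folic intact replicate 1 (45.6 CPM, the lowest of its group) had 0.89, and Wfdc2 in folic intact replicate 3 (59.1 CPM, the highest of its group) had 0.888.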

How the results depend on the processing

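Of 2208 fold changes with 1 library left out, 2174 kept direction and call, 28 lost the call, 5 gained one and 1 reversed; of 933 under the other alternatives, 895 kept both, 10 lost, 23 gained and 5 reversed. Among values that never passed, 123 changed sign.

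Library totals alone called 3 of the 8 tested genes in control 3 d, 4 in control 10 d and 5 in folic 10 d mice against intact, and 3 between 3 and 10 days on folic acid. It reversed Nupr1 in control (0.50) and folic acid mice (0.21) at 10 days, Wfdc2 in folic 10 d (0.23) and Ppp1r1b in folic 3 d mice (0.60). DESeq2 called 1 (Ppp1r1b) between the diets in intact mice and 1 in the diet difference at 10 days, and Krt7 in control 10 d mice (adjusted p = 0.0296). With no filter 2 passed in control 3 d mice, and with no robust step 1 in control 10 d mice. Fits of the compared groups alone called 0 between 3 and 10 days on folic acid and 1 between diets in intact mice. Without the 4 libraries, 2 passed between 3 and 10 days on folic acid and Clu in folic 10 d mice was -0.91.

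With 1 library left out, the genes called ran from 1 to 3 in control 10 d, 1 to 2 in folic 3 d and 1 to 4 in folic 10 d mice against intact, 0 to 1 between 3 and 10 days on the control diet and 1 to 2 on folic acid, and 0 to 1 between diets in intact mice. Clu in folic 10 d mice ran from -1.16 to 1.61. The cause of these changes was not tested.

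The replicate block called 1 gene (Ppp1r1b) between diets in intact mice, where none passed in edgeR over all libraries without the block. DESeq2 and the fit of the intact libraries alone called Ppp1r1b there too. The block lost the call of Wfdc2 in folic 10 d mice (edgeR adjusted p = 0.0824). The labels do not say whether replicate numbers pair the mice, and correlations cannot settle it. Of 55 same-number pairs, correlations of deviations ran from -0.15 to 0.24 (median 0.01), and 8 of 23 libraries matched their own number best.

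Counts of all genes called in the 4 castration comparisons were 1339, 2226, 1923 and 2938, against 5696, 9040, 6592 and 9870 by library totals alone; limma-voom called 2076 and 3586 in the control mice, and 1327 were called in folic 10 d mice without the 4 libraries.
In the other 8 comparisons (10 against 3 days in control and folic acid mice, diets in intact, 3 d, 10 d and mean, and diet differences at 3 and 10 days) 47, 85, 7, 9, 16, 47, 0 and 2 genes were called, and DESeq2 called 145, 260, 23, 28, 45, 83, 3 and 9. For the first 2, library totals alone called 1275 and 1974; for the second, the groups alone called 20 and the fit without the 4 libraries 42. Diets in intact mice had 34 by limma-voom, 11 with the replicate block and 4 without the 4 libraries, at 3 d 15 by the groups alone and 22 without the 4, and at 10 d 34 by limma-voom and 4 by the groups alone. The diet difference at 3 days had 2 by limma-voom, 1 with no filter and 1 by the groups alone, and at 10 days 1 with the replicate block. Psca, Ly6d and Ly6a rest on few counts.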

Other observations

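Some genes of the urothelial list were higher after castration, while the uroplakins of the umbrella cell surface Upk2, Upk3a and Upk3b were at 0 in most libraries. Of the 13 genes of the list 6 were tested, and of those 3 rose and none fell in each of the 4 castration comparisons. Over all genes tested, 3.83% to 10.2% rose and 6.15% to 11.7% fell in those comparisons. Foxq1, a forkhead transcription factor, rose by 2.02 ± 0.30 and 2.53 ± 0.29 in control mice at 3 and 10 days, and by 2.25 ± 0.29 and 2.70 ± 0.29 in folic acid mice. Upk1b, a tetraspanin, rose by between 0.85 ± 0.18 (control 3 d) and 1.28 ± 0.17 (control 10 d), and Gata3, a transcription factor of luminal lineages, by 0.77 ± 0.20, 0.88 ± 0.19, 0.80 ± 0.19 and 1.12 ± 0.19 in the same order as Foxq1, with edgeR adjusted p of at most 0.011.

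After the 6 group means were taken out, the gene closest to Clu over the 23 libraries was Slc40a1, the iron exporter ferroportin, with a Pearson r of 0.91 and a Spearman rho of 0.71. Folic 10 d replicate 2 stood far above all other libraries for Clu, at 3101 CPM, and r was not computed without it. The gene closest to Wfdc2 was Caml (r = 0.80, rho = 0.77), followed by the chemokine receptor gene Cxcr4 (r = 0.77, rho = 0.77) and Gsta4, a glutathione transferase (r = 0.77, rho = 0.78). These are descriptions over libraries that share their scaling.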
